A study of Pinctada fucata with 15 samples.

Results

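The transcripts described here had their highest signal in fertilized eggs of the pearl oyster *Pinctada fucata* and a far lower signal at every later stage that was sampled. They are the 200 probes with the highest egg score among 58583 array probes designed from unigenes, which are assembled transcripts. The score was the mean log2 signal of the 3 egg arrays minus the highest mean among the 4 later stages, taken from the processed table of the authors. Only probes that the scanner software marked as well above background on every spot of all 3 egg arrays could be chosen, which left 30876 candidates. The 200 members make up 0.648% of those candidates, and each lies on a unigene of its own.

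The arrays covered fertilized eggs at 0 h, trochophore stage larvae at 17 h, D-shaped stage larvae at 48 h, umbonal stage larvae at 14 days and juveniles at 35 days after insemination. Each stage had 3 pools and 1 one-colour Cy3 array per pool. All animals came from gametes of adult oysters that were collected apart and then mixed, and were cultured with no special treatment. Eggs were taken right after the sperm had been added, so an egg pool can hold sperm RNA too. Each pool was extracted from whole animals, and nothing in the sources says whether the 3 pools of a stage came from separate spawnings, so p-values measure the spread between these pools. The probes were designed from a transcriptome of adult mantle, and a transcript that was not assembled from that tissue has no probe.

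An egg is loaded with messenger RNA by the mother while it grows in the ovary. This maternal store carries the first cell divisions, during which the embryo's own genome is largely silent, and much of it is degraded as transcription from the embryo begins. Products known from maternal stores of other animals include parts of the machinery for DNA replication and repair, for the meiotic cell cycle and for control of translation. The processed files pair no member with a gene name, so markers of oocytes or of sperm could not be looked up, and the members are named by probe and unigene. For 18 of them a biochemical pathway or a cell component was found in the part of the study's lists that was read. These are given near the end.

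The score of the members lay between 3.75 and 5.81, with a median of 4.08 on the log2 scale, whereas the median over all candidates was -0.01. The members were selected on these egg and later-stage signals, which are therefore a description only. A score of at least 3 was reached by 651 candidates, or 2.11%, and a score of at least 1 by 7655. The end of the list falls in a dense range. CUST_14153 (3.748), CUST_10918 (3.747) and CUST_16382 (3.746) were the last inside it, and CUST_27223 (3.745), CUST_30637 (3.745) and CUST_41184 (3.742) were the first outside. None of the 300 probes designed from GenBank sequences reached the lowest member score, and the highest of them had 3.61.

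In all 200 members the lowest egg pool lay above each of the 12 later arrays in the authors' table. That gap ran from 1.88 to 5.28 on the log2 scale, with a median of 3.62. The rule chose large differences in these same values, so the separation is largely fixed by it. The share over the candidates was not computed. A plot of all members on all arrays shows the step between the egg columns and the rest, and a smaller step between the trochophore stage and the later stages.

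**Figure D1:**
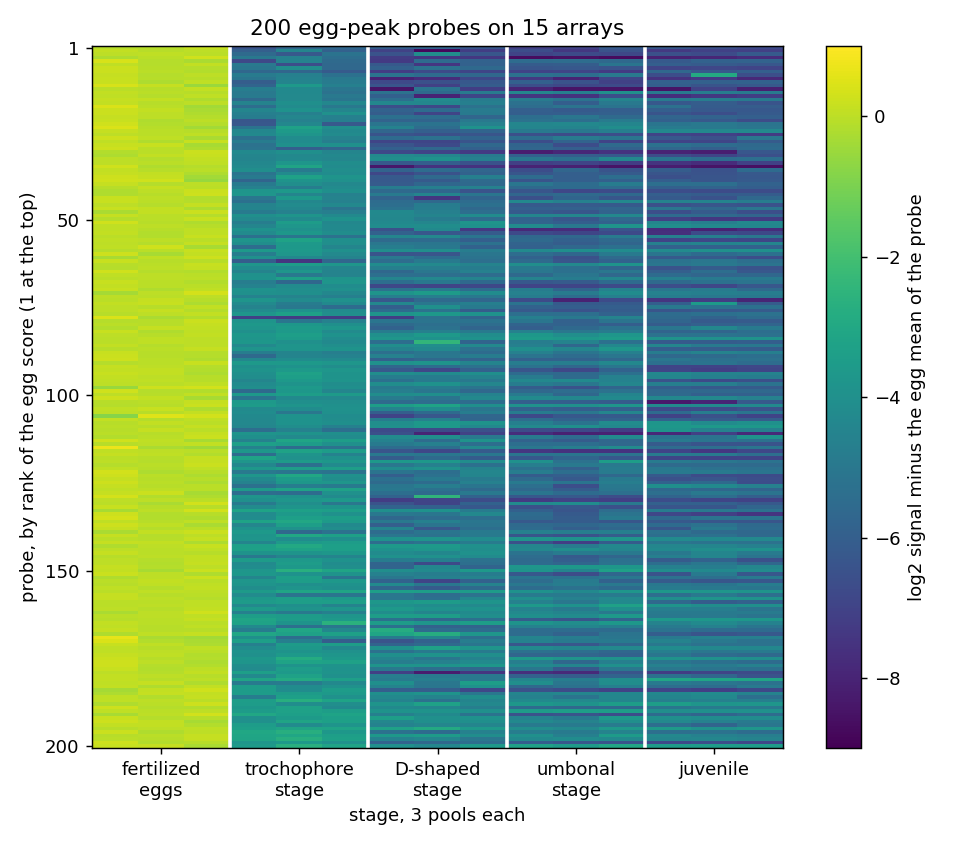
Quantile-normalized log2 signal of the 200 members (rows, highest score at the top) on 15 arrays (columns, 3 pools per stage), minus the egg mean of each probe. The egg columns lie near 0, and as a log2 level the median member had 11.2 in eggs, 6.97 in the trochophore stage and 5.10 in juveniles.

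Signal levels below are log2 processed signals after quantile normalization, which gives all arrays the same distribution, so a fall is a fall relative to the other probes of the array. In bulk pools fewer cells of a type and less RNA per cell cannot be told apart. The median member had 11.21, 11.15 and 11.19 in the 3 egg pools and 6.87, 7.11 and 6.96 in the trochophore pools. In the D-shaped pools it had 5.74, 5.99 and 5.87, in the umbonal pools 5.46, 5.13 and 5.58, and in the juvenile pools 5.09, 5.15 and 5.13. Egg, trochophore and D-shaped pools did not overlap in this median, nor did D-shaped and umbonal pools, whereas umbonal and juvenile pools did. The median candidate, in contrast, stayed between 9.83 and 10.43 on every array.

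The working name of these probes, egg-only, was not borne out by the detection flags. Only 19 of the 200 were well above background on none of the 12 later arrays, whereas 93 were so on all 12 and 88 on some of them. Of those 88, 28 were detected on 1 to 3 later arrays. The 19 are 9.5% of the members, whereas 0.146% of the candidates were on no later array and 88.8% on all 12, a difference that the choice of low later signals favours. The members are therefore called egg-peak probes here.

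Detection on all 3 arrays of a stage was found for 111 members in the trochophore stage, 100 in the D-shaped stage, 121 in the umbonal stage and 140 in juveniles. No array of the stage detected 57, 46, 36 and 32 members in the same order of stages. The candidates were detected on all 3 arrays in 91.7%, 93.2%, 96.7% and 97.9%. Detection on all 3 arrays was thus lowest in the D-shaped stage, whereas the number detected on no array was highest in the trochophore stage. By both measures detection was highest in juveniles, although the median level was lowest there.

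The flag moved with the array as a whole. Of all probe spots, 53.3% to 65.6% were well above background on the egg arrays, 61.8% to 70.3% on the trochophore arrays and 89.3% to 91.2% on the juvenile arrays. Slide 1 carried the eggs, the trochophore stage and 2 D-shaped pools, and slide 2 carried all umbonal and juvenile pools with the D-shaped pool that remained. Within the D-shaped stage, 150 members were detected in the pool on slide 2, against 113 and 107 in the pools on slide 1, while the median difference in member level between the slides was -0.04. Slide and stage cannot be told apart for the flag outside the D-shaped stage. For the level, the contrast of D-shaped and trochophore larvae could be repeated within slide 1, and its values are given with that contrast.

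**Figure D2:**
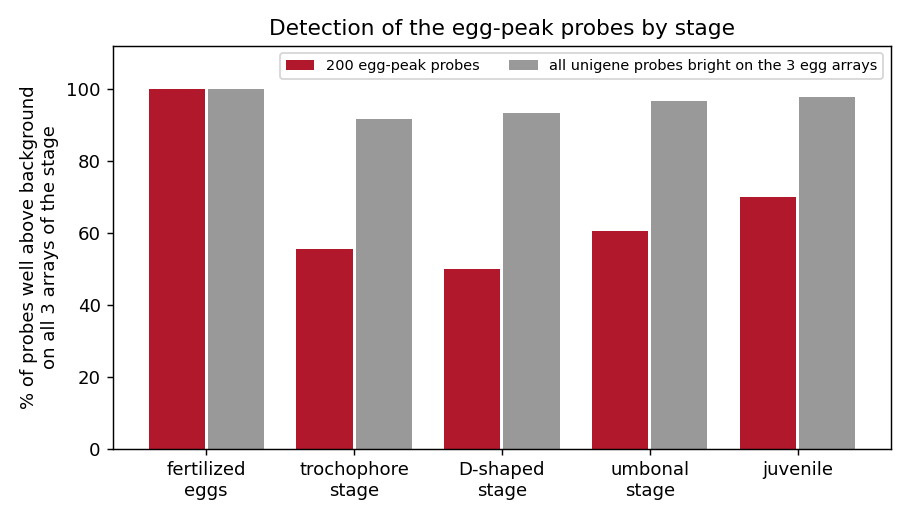
Share of probes that exceeded background clearly on every array of a stage, for the 200 egg-peak probes and for the 30876 candidates. Both sets stand at 100% in eggs because the rule required it. The members fall to 50% in the D-shaped stage and stand at 70% in juveniles, and the candidates stay above 91%.

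The egg level was a multiple of every later level. Over the members measured on all 3 arrays of the later stage, eggs were higher than the trochophore stage by a median of 13.9-fold (8.40 to 48.8, 111 members) and higher than the D-shaped stage by 23.2-fold (9.23 to 225, 100 members). The median was 30.1-fold over the umbonal stage (9.85 to 294, 121 members) and 36.1-fold over juveniles (8.65 to 342, 140 members). Where a member was detected on no array of the later stage, its fold is a lower bound, set against the higher of its own signal and the lowest signal among well measured probes on each array. Those bounds had medians of 9.49 (trochophore stage, 57 members), 17.4 (D-shaped stage, 46), 36.6 (umbonal stage, 36) and 33.2 (juveniles, 32). The 93 members measured everywhere were at a median of 12.9-fold over their highest later stage, and the 19 with no later detection were at least 6.45-fold higher at the median. These folds follow from the rule and were not tested.

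The highest later level was most often that of the trochophore stage. In the authors' table this held for 137 members, whereas D-shaped larvae led in 21, umbonal larvae in 15 and juveniles in 27. Among the candidates the shares were 49.3%, 17.0%, 15.7% and 17.9%. On the quantile-normalized scale the trochophore stage led in 161 members and juveniles in only 7, so the number of members led by juveniles depended on the scale.

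CUST_11410 (Unigene11418) had the highest score among members measured at their highest later stage. Its log2 signal was 12.10, 12.32 and 12.61 in eggs, 7.36, 7.72 and 6.95 in the trochophore stage, 5.13, 4.91 and 4.94 in the D-shaped stage, 3.67, 3.77 and 3.62 in the umbonal stage, and 4.25, 4.41 and 4.62 in juveniles. Eggs were 31.9-fold above the trochophore stage. At the umbonal stage it was detected on no array, and eggs were at least 298-fold higher, the largest bound of any member. In juveniles it was again detected on all 3 arrays, at 241-fold below eggs, and no pools of eggs and of later stages overlapped.

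CUST_52089 (Unigene52128) behaved differently after the egg. It had 11.87, 11.37 and 11.18 in eggs, 4.63, 6.91 and 5.94 in the trochophore stage, 4.17, 5.97 and 5.63 in the D-shaped stage, 6.02, 6.05 and 5.90 in the umbonal stage, and 5.29, 5.61 and 5.65 in juveniles. The trochophore and D-shaped pools were spread widely, and 2 of 3 were detected at each. No later contrast that was tested passed, and eggs were 44.7-fold above the umbonal stage.

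Several of the top probes were detected in juveniles and not in the trochophore stage. CUST_26660 (Unigene26678) had 10.25, 10.11 and 10.30 in eggs and 4.24, 4.10 and 3.94 in juveniles, a 69.9-fold difference. Its trochophore values of 5.25, 3.60 and 4.61 were not well above background. CUST_6 (Unigene6) had 10.71, 10.43 and 10.32 in eggs and 4.86, 4.27 and 4.50 in juveniles, and it was detected on no array of the stages between. Its trochophore values were 4.82, 4.78 and 4.34. CUST_20453 (Unigene20465) had 10.06, 9.68 and 9.96 in eggs and 4.02, 4.02 and 4.04 in juveniles, with no detection in the trochophore or D-shaped stage. Its trochophore values were 3.85, 5.40 and 5.07. The juvenile signal of these 3 probes was low but marked on every juvenile array. In each of the 3 the juvenile mean lay below the mean of the unmarked trochophore pools.

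In all, 15 members were detected on all 3 juvenile arrays and on no trochophore array, or 7.5% of the members against 2.07% of the candidates. The opposite pattern was found in 0 members and in 70 candidates. The 15 were 29.4-fold to 69.9-fold higher in eggs than in juveniles, with a median of 36.5-fold. The count is one of flags and not of a rise in level. In the limma contrast of juvenile over trochophore stage given below, CUST_20852 and CUST_11649 were called higher. CUST_39201, CUST_44145, CUST_34284 and CUST_21176 were called lower. The others were not called, and each had a lower mean in juveniles than in the trochophore stage. The part of the slide in these counts was not tested.

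CUST_15687 (Unigene15695) had 1 pool apart from the others. It had 11.85, 11.62 and 11.74 in eggs and between 6.11 and 7.11 in all trochophore, D-shaped and umbonal pools. Its juvenile pools had 5.09, 8.85 and 5.16, so that the second pool alone stood above the trochophore stage. Without that pool the juvenile mean was 5.12, against 6.37 with it. On this scale the fold over the highest later stage, 30.5, is set by the trochophore stage and did not rest on that pool. In the authors' table juveniles were its highest later stage, so its score of 5.06 includes that pool.

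CUST_50670 (Unigene50709) had 11.27, 11.23 and 11.36 in eggs and 6.5, 7.05 and 6.23 in the trochophore stage, and it was detected on no umbonal array, where eggs were at least 144-fold higher. CUST_26526 (Unigene26543) was the brightest of the 8 top measured probes. It had 13.63, 13.51 and 13.46 in eggs and lay between 7.97 and 9.51 on every later array, with detection on all 12. Eggs were 20.6-fold above the umbonal stage, its highest later stage on this scale. A large egg excess was thus seen together with a later signal well within the measurable range.

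Among the 19 members with no later detection, CUST_9431 (Unigene9438) had the highest score of all 200 and the largest bound. It had 9.79, 9.81 and 10.03 in eggs, and its later values ran from 2.76 to 4.20, none of them well above background. Eggs were at least 14.3-fold higher than any later stage. CUST_18164 (Unigene18174) had 9.79, 9.58 and 9.91 in eggs and a bound of 13.2-fold, CUST_53766 (Unigene53805) had 9.94, 9.67 and 9.62 and a bound of 13.0-fold, and CUST_2247 (Unigene2248) had 9.83, 9.69 and 9.69 and a bound of 13.0-fold. All 4 stood at much the same egg level. CUST_48560 (Unigene48597) followed at 10.7-fold, CUST_44789 (Unigene44823) at 7.80-fold, CUST_47752 (Unigene47788) at 6.92-fold and CUST_42968 (Unigene42999) at 6.77-fold.

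**Figure D3:**
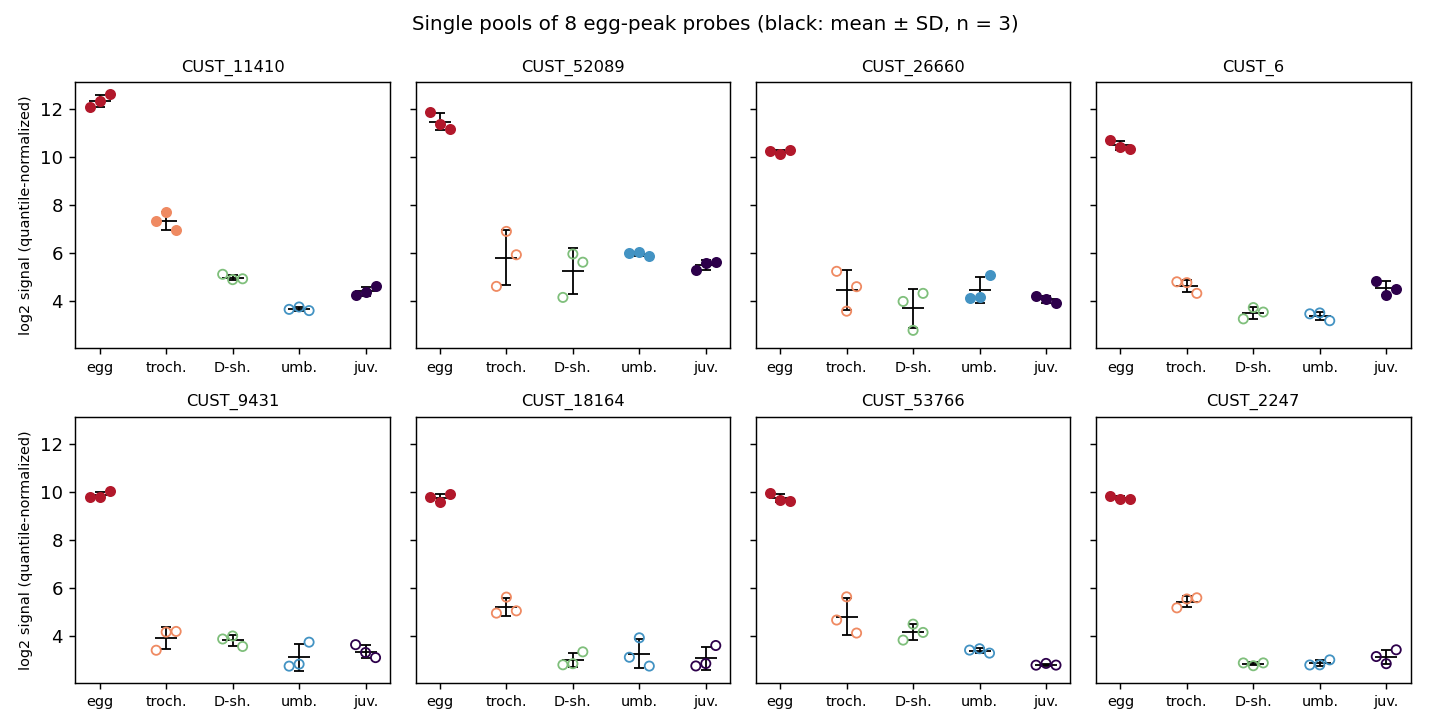
Log2 signal (quantile-normalized) of single pools, with the mean and SD of 3 pools in black. The upper row holds the 4 highest scoring members measured on all 3 arrays of their highest later stage in the authors' table. The lower row holds the 4 with the largest lower bound and no later detection. Filled points mark stages at which all 3 arrays were well above background. The egg pools of CUST_11410 lie between 12.10 and 12.61, and no later pool of any of the 8 probes exceeds 7.72.

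The 3 egg pools were close to each other. The SD between egg pools had a median of 0.137 over the members, with a range from 0.02 to 0.73, and a median of 0.156 over the candidates. CUST_39653 (Unigene39681) had the widest spread, with 9.25, 10.59 and 10.41, and CUST_50260 (Unigene50299) the narrowest, with 10.66, 10.63 and 10.67. The first egg pool was the highest in 104 members, the second in 21 and the third in 75, although the median deviations of the pools from the probe mean were only 0.06, -0.04 and -0.01. With spike-in scaling these numbers were 135, 32 and 33, so the count of the third pool depended on the scale. For the 8 members printed in a pair of spots, the spots differed by a median of 0.104 on the log2 scale and at most by 0.976.

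Between later stages the egg-peak probes were set against all probes of the array, to ask whether the signal left after the egg kept falling. The rule took the highest of the same later means, so a probe that rose at any later stage had a lower score and was less likely to be chosen. The scarcity of rises among the members is therefore partly fixed by the rule, and the shares beside the background are a description. Stages were compared with limma, fitted to all 15 arrays and all probes. To be tested, a probe had to exceed background clearly on every array of 1 or both of the stages compared. Calls needed a 2-fold difference as well as a p below 0.05 after adjustment by Benjamini and Hochberg. In T/O, trochophore stage over eggs, all 200 members were called lower, where 27.1% of tested probes were, but the rule fixed that count and nothing is read from it.

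In D/T, D-shaped over trochophore stage, 50 of 117 tested members fell and 0 rose, whereas 16.6% of all 42202 tested probes fell and 16.9% rose. The median change was -0.76 for the members and -0.16 for all tested probes. Part of the tested members were measured in the trochophore stage alone and entered because they were higher there, so the 93 members measured on all 15 arrays are the better guide. Of these, 33 fell and 0 rose, with a median change of -0.66, and 78 of the 93 had a value below 0. Among the 27529 probes measured on all 15 arrays, 16.7% fell, 8.74% rose and the median change was -0.28. With D-shaped pools from slide 1 only, 49 members fell and 0 rose, against 17.9% and 17.2% of tested probes. Under scaling by spike-in controls, which moved the median of all tested probes to 0.42, 26 members fell and 5 rose, against 5.85% and 28.4% of tested probes.

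Of the 50 members that fell, 33 were measured on all 3 D-shaped arrays and 3 on none. CUST_47497 (Unigene47533) was 1 of these 3. It had 4.10, 2.98 and 3.76 in the D-shaped stage, none well above background, against 7.86, 7.62 and 7.35 in the trochophore stage, so it was at least 6.04-fold lower (limma adjusted p = 6.34e-07). In eggs it had stood at 11.22, 11.11 and 11.30. CUST_52613 (Unigene52652) had the largest fall among members measured on both sides. Among the brightest of all members in eggs, with 14.71, 14.25 and 14.34, it had 6.07, 6.89 and 6.90 in the D-shaped stage against 10.13, 11.27 and 10.24 in the trochophore stage (-3.93 ± 0.30, SE, limma adjusted p = 1.74e-07). It was measured on every array and stayed near 6 in the umbonal stage and in juveniles, at 294-fold and 342-fold below eggs. CUST_11410, described above, changed by -2.35 ± 0.20 (SE, limma adjusted p = 3.97e-07), with 1 of 3 D-shaped arrays above background. The pools of the D-shaped and trochophore stages overlapped in none of the 3 probes, which follows largely from called changes of this size.

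In U/D, umbonal over D-shaped stage, 17 of 123 tested members fell and 4 rose, against 15.8% and 16.2% of all 47882 tested probes. The share that fell was near the background, and the share that rose, 3.25%, was below it. The median change was -0.32 for the members and -0.07 for all tested probes. Of the 93 measured everywhere, 14 fell and 2 rose, against 16.0% and 9.20% of probes measured everywhere. The split turned with the scaling: 8 members fell and 17 rose when spike-in controls set the scale, against 7.20% and 24.7% of tested probes.

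CUST_20174 (Unigene20186) had 8.0, 7.66 and 8.32 in the umbonal stage against 10.33, 10.70 and 9.72 in the D-shaped stage, a change of -2.26 ± 0.24 (SE, limma adjusted p = 5.13e-06). Its trochophore pools, at 10.37, 10.20 and 10.12, overlapped the D-shaped pools (D/T 0.02 ± 0.24, SE). CUST_23173 (Unigene23188) fell in U/D (-1.80 ± 0.22) and in D/T (-1.5 ± 0.22), and its juvenile pools, at 7.61, 7.39 and 7.64, lay above its umbonal pools, at 6.64, 6.75 and 6.48, by less than the 2-fold limit.

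Rises at the umbonal stage were few. CUST_38038 (Unigene38066) had 5.57, 5.63 and 4.81 in the umbonal stage against 3.32, 2.85 and 3.91 in the D-shaped stage, where no array was well above background, so it was at least 1.25-fold higher (limma adjusted p = 0.00021). In juveniles it had 3.89, 3.88 and 3.58, with 2 of 3 arrays above background, and was called lower. The umbonal stage is the only later stage at which this probe was measured on all 3 arrays. CUST_10400 (Unigene10408), measured on all arrays, had 8.19, 8.25 and 8.23 in the umbonal stage against 6.16, 7.56 and 6.17 in the D-shaped stage (1.59 ± 0.30, SE, limma adjusted p = 0.000627). It had been called lower in D/T (-1.36 ± 0.30), so that its umbonal level was close to the trochophore level of 7.80, 8.27 and 7.89. All its later values stayed at least 3 log2 units below the egg pools of 12.04, 11.83 and 11.94.

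In J/U, juvenile over umbonal stage, 13 of 145 tested members fell and 9 rose, against 15.9% and 13.4% of all 52432 tested probes. Both shares, 8.97% and 6.21%, were below the background, and the median change was -0.17 for the members and -0.10 for all tested probes. Of the 93 measured everywhere, 7 fell and 4 rose, against 13.5% and 6.32% of probes measured everywhere. The direction depended on the scale here too, since 6 fell and 21 rose after a shift by the 75th percentile (11.3% and 16.2% of tested probes), and 9 fell and 16 rose with spike-in scaling (13.6% and 14.2%).

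CUST_36239 (Unigene36261) entered through the juvenile stage. It had 7.46, 6.71 and 6.61 in juveniles against 4.54, 4.45 and 4.07 in the umbonal stage, where 2 of 3 arrays were above background (2.57 ± 0.25, SE, limma adjusted p = 2.69e-06). CUST_12513 (Unigene12521), with the largest rise among members measured on both sides, had 8.69, 8.58 and 8.61 in juveniles against 6.21, 5.88 and 6.51 in the umbonal stage (2.43 ± 0.18, SE, limma adjusted p = 1.78e-07). Its trochophore pools had 9.15, 8.82 and 8.71, so the juvenile level lay close to the level before the D/T fall (-2.03 ± 0.18). The largest falls were those of CUST_25212 (Unigene25229), with 4.48, 4.15 and 4.33 in juveniles against 6.58, 6.71 and 6.32 in the umbonal stage (-2.22 ± 0.21), and of CUST_27004 (Unigene27022), with 5.81, 5.78 and 5.75 against 7.82, 7.42 and 8.08 (-1.99 ± 0.22). Juvenile and umbonal pools overlapped in none of these 4 probes, which follows largely from picking the largest called changes. CUST_6 was also called higher in J/U (limma adjusted p = 0.000413), but no umbonal array was above background and the bound was only 1.35-fold.

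Over the whole span after the egg, J/T, juvenile over trochophore stage, 88 of 148 tested members fell and 2 rose. Some of the 88, among them CUST_39201, CUST_44145, CUST_34284 and CUST_21176, were detected on no trochophore array and entered through juveniles alone. The background was 30.4% lower and 25.8% higher among all 51942 tested probes, and the median change was -1.37 for the members and -0.20 for all tested probes. Of the 93 measured everywhere, 52 fell and 0 rose, or 55.9% lower against 37.1% lower and 13.7% higher among probes measured everywhere, with medians of -1.20 for the members and -0.56 for all. After spike-in scaling 31 fell and 24 rose, against 10.99% and 45.4% of all tested probes, with a median of all tested probes of 0.82. After a shift by the 75th percentile 60 fell and 6 rose, against 25.2% and 30.6%.

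CUST_52613 had the largest fall in J/T, -4.53 ± 0.30 (SE, limma adjusted p = 1.75e-08), with juvenile pools at 6.22, 5.97 and 5.84. CUST_19618 (Unigene19629) had 4.05, 3.70 and 4.08 in juveniles against 7.91, 7.86 and 7.54 in the trochophore stage (-3.82 ± 0.60, SE, limma adjusted p = 6.54e-05). Its D-shaped pools, at 5.26, 7.54 and 4.44, were spread widely, and only the second lay near the trochophore pools. Both probes called higher, CUST_11649 (Unigene11657), with 4.49, 4.22 and 4.56 in juveniles against 2.98, 2.82 and 2.82 in the trochophore stage (limma adjusted p = 0.00204), and CUST_20852 (Unigene20864), with 5.10, 5.25 and 4.95 against 4.26, 2.83 and 4.59 (limma adjusted p = 0.00899), were well above background on no trochophore array. No fold is given for them, because the bound was below 1.

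**Figure D4:**
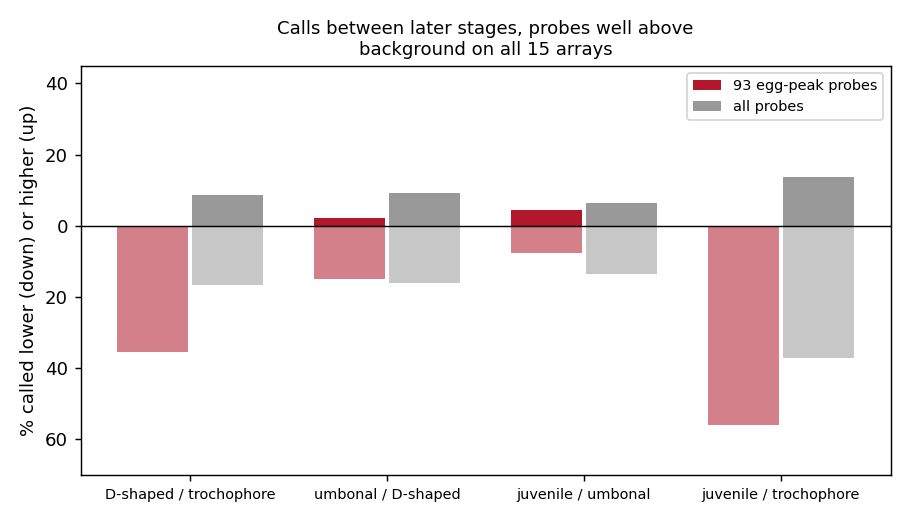
Share of probes called higher (bars up) or lower (bars down) by limma in 4 contrasts between later stages, for the 93 egg-peak probes and for all 27529 probes measured on all 15 arrays. In D-shaped over trochophore stage 33 of the 93 were lower and 0 higher, and in juvenile over trochophore stage 52 were lower and 0 higher, while the bars for umbonal over D-shaped stage and juvenile over umbonal stage are shorter.

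Across D/T, U/D and J/U, 71 of the 153 members tested in any of them were called lower at least once, or 46.4%, and 13 higher at least once, or 8.50%, 7 of them both. Among all 52778 probes tested in any of them 37.1% were lower and 35.2% higher at least once. No member was lower in all 3, 123 were called in none, and of these 47 were tested in none because no later stage measured them on all 3 arrays. The 5 members called lower in D/T and again in U/D were CUST_23173, CUST_28822, CUST_32934, CUST_4396 and CUST_45295. Beyond the shares for at least 1 call, no share over all probes was computed for these counts, and nothing is read from them.

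A term was found for 18 members, and none was found for the other 182 among the probes read. At most 17 probes were read per term, so a member further down a longer list would have been missed. The lists name probes that changed between stages in these same samples, so the terms give roles and are no evidence of direction. Over all pathway lists of trochophore stage against eggs, 746 of the 1507 probes read, or 49.5%, had their highest mean in eggs, against 47.5% of the candidates. In D/T, 9 of the 12 tested fell and 0 rose, in U/D 1 of 11 fell, in J/U 1 of 11 fell, and in J/T 8 of 12 fell and 0 rose. The shares of all tested probes that fell were 16.6%, 15.8%, 15.9% and 30.4% in the same order, and CUST_14153, CUST_16813, CUST_17538, CUST_32934, CUST_39171, CUST_40746 and CUST_49241 stand on the study's own lists of probes changed in D/T, so their D/T calls are not independent.

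Genome maintenance was listed for 3 members. CUST_14712 (Unigene14720) stands under DNA replication, mismatch repair, base and nucleotide excision repair and homologous recombination, pathways that copy DNA and mend errors and damage. It had 8.31, 8.09 and 8.14 in eggs and was well above background on no later array, so that eggs were at least 4.42-fold higher than any later stage. Among the probes read per pathway the number with their highest mean in eggs ran widely, from 17 of 17 under DNA replication and 14 of 17 under homologous recombination to 12 of 17 under regulation of autophagy, 6 of 17 under calcium signalling and 5 of 17 under Wnt signalling. CUST_14153 (Unigene14161) and CUST_49241 (Unigene49278) stand under homologous recombination, the repair of breaks by copying from a matching strand. CUST_14153 was the brightest member in eggs, with 14.50, 14.45 and 14.66 in eggs, 11.37, 11.80 and 11.23 in the trochophore stage, 9.99, 10.13 and 9.50 in the D-shaped stage, 10.29, 10.40 and 10.29 in the umbonal stage, and a mean of 10.06 ± 0.06 (SD, n = 3) in juveniles. It fell in D/T (-1.59 ± 0.18, SE, limma adjusted p = 7.5e-06) and was called in neither U/D nor J/U, at 22.2-fold below eggs in juveniles. CUST_49241 had 12.51, 12.23 and 12.19 in eggs, fell in D/T (-1.34 ± 0.22) and stood at 8.45, 8.40 and 8.30 in juveniles.

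Regulation of autophagy, the delivery of cell contents to the lysosome for breakdown, was also listed for 3 members, and they differed from each other. CUST_12552 (Unigene12560) had 13.87, 13.93 and 13.89 in eggs and lay between 9.77 and 10.43 on all 12 later arrays, with no call between later stages. CUST_39171 (Unigene39199) had 11.89, 11.79 and 11.65 in eggs, fell in D/T (-1.34 ± 0.22, SE, limma adjusted p = 0.000181), and had 7.74, 7.97 and 7.90 in juveniles. CUST_23448 (Unigene23463) had 8.54, 7.99 and 8.13 in eggs and no detection later, at least 4.53-fold lower. One pathway name thus covered a probe that kept a steady later level, a probe that fell in D/T but not in J/T, and a probe that was not measurable after the egg.

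CUST_18478 (Unigene18488) stands under progesterone-mediated oocyte maturation, the signalling known from frogs that takes the oocyte through meiosis. It had 9.63, 9.42 and 9.53 in eggs and was detected on no trochophore or D-shaped array, at least 11.2-fold and 22.7-fold below eggs. In the umbonal stage 1 array and in juveniles 2 arrays were well above background, at values from 3.67 to 4.74 over both stages. CUST_16313 (Unigene16321), under RNA degradation, the clearance of transcripts, had 9.68, 9.30 and 9.24 in eggs and no detection in the trochophore stage, at least 10.3-fold lower. It was detected on 1 array at each of the other later stages. Neither probe was measured well enough after the egg for a test between later stages.

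GPI-anchor biosynthesis, which makes the glycolipid that tethers proteins to the cell surface, was listed for a pair of members. CUST_32934 (Unigene32955) was measured on all arrays and had 12.84, 12.83 and 12.76 in eggs, 9.11, 9.55 and 9.32 in the trochophore stage, 6.44, 5.95 and 6.68 in the D-shaped stage, 5.39, 5.24 and 5.27 in the umbonal stage, and 5.83, 5.40 and 5.94 in juveniles. It fell in D/T (-2.97 ± 0.20, SE, limma adjusted p = 4.44e-08) and again in U/D (limma adjusted p = 0.000624), and was 183-fold below eggs in the umbonal stage. CUST_23777 (Unigene23792) had 8.97, 7.99 and 7.83 in eggs, with the first pool above the others, and no later detection. Eggs were at least 4.67-fold higher there. CUST_17538 (Unigene17548), under Wnt signalling, which patterns embryonic axes, had 7.02, 6.96 and 6.83 in the trochophore stage and was detected on no D-shaped or umbonal array, with eggs, at 10.81, 10.76 and 10.95, at least 56.5-fold and 106-fold higher.

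Metabolic terms covered most of the remaining members. CUST_16813 (Unigene16821), under fatty acid metabolism and peroxisome, had 12.46, 12.72 and 12.69 in eggs and 7.54, 8.24 and 7.69 in juveniles, and fell in D/T (-1.91 ± 0.23). CUST_10398 (Unigene10406), under purine metabolism, had 11.75, 11.39 and 11.62 in eggs and 6.53, 6.76 and 6.05 in juveniles, and fell in D/T (-1.22 ± 0.28). CUST_40746 (Unigene40774), under starch and sucrose metabolism, had 11.03, 11.13 and 10.89 in eggs and 4.64, 4.83 and 4.88 in juveniles, and fell in D/T (-1.52 ± 0.20). All 3 probes were measured on every array, and their egg pools lay above all later pools.

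CUST_35910 (Unigene35932), under chondroitin sulfate biosynthesis, had 12.29, 12.09 and 11.83 in eggs and 6.99, 6.76 and 6.55 in juveniles, and fell in D/T (-1.11 ± 0.26). CUST_23658 (Unigene23673), under keratan sulfate biosynthesis, kept its trochophore level of 8.68, 8.80 and 8.79 in the D-shaped stage, at 8.47, 8.69 and 8.37, and had 6.58, 6.11 and 6.28 in juveniles, with a called fall in J/U (-1.23 ± 0.19, SE, limma adjusted p = 0.00015). CUST_23332 (Unigene23347), under terpenoid backbone biosynthesis, had 12.09, 12.24 and 12.10 in eggs and 8.35, 7.99 and 8.15 in juveniles and was called in no contrast of later stages. Between neighbouring later stages these 3 probes, listed for the building of sugar chains or isoprenoid precursors, were thus called in different contrasts or in none. Over the whole span, J/T, both CUST_35910 and CUST_23658 were called lower. CUST_11101 (Unigene11109), under calcium signalling and endocytosis, had 8.84, 7.93 and 7.82 in eggs and was detected on 1 later array, an umbonal one.

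**Figure D5:**
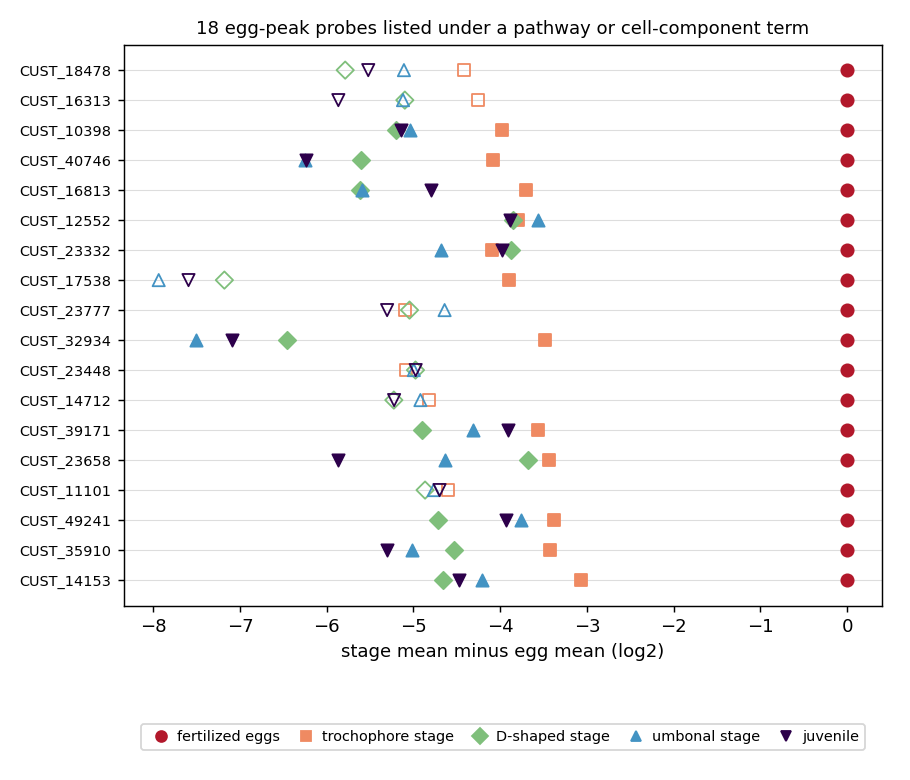
Stage mean minus egg mean, on the log2 scale, for the 18 egg-peak probes listed under a term, in order of score. Filled marks are stages measured on all 3 arrays and open marks are stages that were not. The marks of CUST_12552 lie close together between -4 and -3, whereas those of CUST_32934 spread over 4 log2 units, with the trochophore stage nearest to eggs.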

How the data were processed

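RNA of 15 pools was hybridised to one-colour Agilent arrays. Per the file headers, the intensity values were background-subtracted and detrended by Feature Extraction 11.5.1.1 before deposit, with no scaling between arrays. The authors' deposited table holds log2 values. Set against the scanner files, every column is a plain shift of the array's log2 signal, by about its 75th percentile, so the quantile normalization named in the methods is not seen in it. This table gave the scores, the gap between arrays, a count of the leading later stage and an alternative scale.

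Control and outlier spots (17 to 56 per array, none saturated) were left out and the spots of a probe averaged. The signal, floored at 1, was put on the log2 scale and quantile-normalized over 58883 probes. With limma 3.58.1 (R 4.3.3) 1 mean per stage was fitted to 15 arrays, and p-values were adjusted over all tested probes. Tables were made in Python 3.11.15 with numpy 2.4.6 and pandas 2.3.3.

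Members and lists were chosen with earlier results of these data known. Probes were named by rule: the 8 highest scores measured at the highest later stage, the 8 largest bounds without later detection, the members given a term, and the 2 largest rises and falls in each contrast of later stages. CUST_39653, CUST_50260, the probes called lower in both D/T and U/D and the J/U call of CUST_6 were picked after their values were seen. Precision is limited by 3 arrays per stage. No counts are involved.

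The replicate numbers were not taken to pair pools, because the correlation of deviations between same-numbered pools of neighbouring stages ran from -0.519 to 0.355 over 12 pairs. Background correction by normexp used the median signal with an offset of 50. The alternatives were other scalings, filters, blocks, members and left-out arrays.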

Additional observations from a re-analysis of the deposited data

How the results depend on the processing

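Of the 200 members, all but 1 were chosen again on a 75th-percentile shift, 140 on quantile-normalized values, 145 with spike-in scaling, 150 after normexp, 153 with dim later values raised to the detection limit, 169 against the highest single later array, and 100 when only 100 were taken. Leaving out each array in turn kept 180 to 199. Members chosen on quantile-normalized values were dimmer: 39 of them were measured on all 12 later arrays, and 55, 47 and 79 on all 3 trochophore, D-shaped and umbonal arrays.

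The main counts of called members were 200 in T/O, 50 in D/T, 21 in U/D, 22 in J/U and 90 in J/T. In D/T they became 31 with spike-in scaling (26 lower, 5 higher, against 5.85% and 28.4% of probes). With no filter on dim probes they were 85 (83 lower, 2 higher, against 14.9% and 13.8% of probes). They became 33 when all 6 arrays had to be above background (all lower, against 16.9%). Members chosen on quantile-normalized values gave 26 of 62 tested (all lower, against 16.6%). In T/O, the filter on all 6 arrays left 111, because it left 111 members to test. Normexp gave 6 in U/D (5 lower, 1 higher, against 10.1% and 11.2% of probes) and 5 in J/U (2 lower, 3 higher, against 9.15% and 9.17%). The filter on all 6 arrays gave 14 in J/U (8 lower, 6 higher, against 16.5% and 10.2%). In J/T spike-in scaling gave 55 (31 lower, 24 higher, against 10.99% and 45.4% of probes). Members chosen on quantile-normalized values also gave 55, of 114 tested (53 lower, 2 higher, against 30.4% and 25.8%). Apart from fewer probes under a filter, the cause was not tested. Without single arrays the counts ran from 200 to 200 in T/O, 47 to 58 in D/T, 20 to 30 in U/D, 20 to 27 in J/U and 88 to 97 in J/T.

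With the replicate number as a block the counts were 200, 50, 21, 22 and 90. With the slide as a block 49 members fell and 0 rose in D/T, against 17.9% and 17.2% of tested probes. In U/D 18 fell and 4 rose (12.8% and 12.7%), and in J/U 13 fell and 9 rose (16.0% and 13.5%). In J/T 82 fell and 2 rose (27.8% and 22.7%). Among alternatives chosen after seeing the data, slide 1 alone gave 49 in D/T and slide 2 alone 27 in U/D. For the 49 named probes egg minus highest later stage, which the rule fixed above 0, ran from 2.44 to 5.02 with spike-in scaling, against 3.07 to 5.95 on the main scale.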
